A study of Mus musculus with 14 samples.

Results

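Broad H3K27me3 domains, stretches of the mark at least 30 kb wide, were described in progenitors left after lineage depletion of C57BL/6 mouse bone marrow. They were selected on the measured islands, the enriched stretches that SICER called in each ChIP-seq library. Islands of 2 libraries labelled UTX WT and 2 labelled UTX KO were merged where they overlapped, and a domain was an autosomal merged region with an island in all 4 libraries, a merged width of 30 kb or more and no island of the IgG library. Of 27722 merged regions, 6771 held an island in all 4 libraries and 459 were broad domains. The KO libraries came from mice deficient for UTX, the histone demethylase encoded by Kdm6a, and the WT libraries from mice with the gene. The labels give neither sex nor age, neither the allele nor the Cre or promoter behind the deletion, nor whether numbered libraries came from separate animals, so all p-values measure the spread between libraries. H3K27ac was measured in 2 WT and 2 KO libraries as well. UTX itself was measured in 2 WT libraries, and the IgG library, which was the control of a BCOR precipitation per its title, was also WT. Lineage depletion leaves a mixture of stem and progenitor cells, and in such bulk samples fewer cells carrying a mark and less of the mark per cell cannot be told apart.

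H3K27me3 is laid down on histone H3 by the Polycomb complex PRC2 and is read by PRC1, whose Cbx subunits bind the mark. UTX can remove the mark through its JmjC domain, and it is also a subunit of the MLL3 and MLL4 complexes, which act at enhancers. In differentiated and progenitor cells, wide H3K27me3 domains are known from Hox clusters and other genes of embryonic patterning, which are kept silent. H3K27ac marks active promoters and enhancers, and a single lysine cannot carry both modifications at once.

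The promoters of 4 genes are shown because their domains stand for the main patterns: a patterning gene whose domain differed little between genotypes (Hoxd13), the domain with the second highest fold change, KO over WT (Lrig1), a domain with a large fall in H3K27ac (Arhgef12) and a domain with fewer reads in KO (Fam83g). Each runs from 250 bases before to 50 bases after the start listed by RefSeq in build GRCm38.p6, is written 5′ to 3′ on the strand of the gene, and has each CG dinucleotide in capitals.
Hoxd13, chr2:74667975-74668274, plus strand: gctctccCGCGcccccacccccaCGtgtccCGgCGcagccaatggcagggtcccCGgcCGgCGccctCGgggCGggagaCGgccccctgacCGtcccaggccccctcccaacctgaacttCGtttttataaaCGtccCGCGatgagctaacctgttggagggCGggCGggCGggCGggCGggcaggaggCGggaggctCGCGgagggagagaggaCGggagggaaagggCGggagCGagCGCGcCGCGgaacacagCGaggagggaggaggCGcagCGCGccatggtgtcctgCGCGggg
Lrig1, chr6:94700096-94700395, minus strand: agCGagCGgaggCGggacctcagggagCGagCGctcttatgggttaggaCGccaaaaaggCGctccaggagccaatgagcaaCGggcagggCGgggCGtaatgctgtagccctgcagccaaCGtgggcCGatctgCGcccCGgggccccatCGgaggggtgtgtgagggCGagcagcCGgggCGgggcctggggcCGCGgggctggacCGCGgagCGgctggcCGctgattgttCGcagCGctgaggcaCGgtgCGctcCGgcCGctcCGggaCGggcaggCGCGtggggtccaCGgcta
Arhgef12, chr9:43105669-43105968, minus strand: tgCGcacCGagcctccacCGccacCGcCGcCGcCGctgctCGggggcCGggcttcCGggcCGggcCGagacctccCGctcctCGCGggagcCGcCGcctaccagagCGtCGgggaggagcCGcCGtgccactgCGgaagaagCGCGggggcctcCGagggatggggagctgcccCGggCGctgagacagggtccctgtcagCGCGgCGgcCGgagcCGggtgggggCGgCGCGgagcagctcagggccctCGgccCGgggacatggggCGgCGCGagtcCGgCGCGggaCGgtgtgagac
Fam83g, chr11:61684160-61684459, plus strand: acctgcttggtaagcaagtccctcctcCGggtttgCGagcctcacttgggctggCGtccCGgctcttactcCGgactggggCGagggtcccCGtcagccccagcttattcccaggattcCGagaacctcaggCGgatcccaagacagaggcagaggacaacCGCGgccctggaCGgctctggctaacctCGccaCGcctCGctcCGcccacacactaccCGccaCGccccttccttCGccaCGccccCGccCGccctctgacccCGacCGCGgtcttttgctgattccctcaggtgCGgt
These promoters held 37, 35, 44 and 26 CG dinucleotides in 300 bases. Starts lay 28.2 kb inside the nearer edge of the domain for Hoxd13, 10.3 kb for Lrig1, 8.92 kb for Arhgef12 and 18.2 kb for Fam83g. Of the 422 listed promoters whose start lay in a broad domain, 60.9% held 15 or more CG dinucleotides, the same share as among 2819 promoters in narrower H3K27me3 regions, against 48.1% of all 20085 autosomal protein-coding promoters of the same length. In domains with a listed developmental gene the share was 71.3% of 129 promoters.

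The libraries held 14665 to 20412 H3K27me3 islands and 2347442 to 2743508 reads in islands, and 19.8% to 22.3% of these reads lay in the broad domains. The H3K27ac libraries held 9330823 to 15256696 reads in islands, the UTX libraries 816567 and 1834418 and the IgG library 154029. Of 10 listed progenitor markers 9 were looked up at a start. All 9, among them Kit, Cd34, Runx1 and Myb, had an H3K27ac island within 2 kb of a listed start in all 4 libraries. So did 1 of 3 B cell markers (Cd79a), 1 of 4 T cell markers (Lck), and all 3 erythroid markers (Epor, Gata1 and Klf1). Of the 2 stromal markers looked up, Cxcl12 and Pdgfra, 0 did, and no endothelial marker was looked up at a start. H3K27me3 islands lay at the other B cell markers, Ebf1 and Pax5, at Bcl11b of T cells and at the stromal Cxcl12 and Pdgfra in all 4 libraries. Flt3, Gata2, Meis1 and Epor had islands of both marks in all libraries. The removed gene Kdm6a carried H3K27ac islands in all libraries (1840 and 1562 reads in WT, 2674 and 2059 reads in KO), so the island lists did not check the genotype labels.

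Width was used to select the domains, so their widths are given as a description. The median was 38.8 kb, with quartiles of 33.4 and 49.6 kb. 112 domains reached 50 kb and 12 reached 100 kb. They summed to 20.79 Mb, which was 22.2% of the length of all regions found in 4 libraries although they made up 6.78% of those regions. The widest, 223.6 kb on chromosome 19 (44617801 to 44841400, mm10), lay over Pax2, a paired-box factor of kidney, eye and brain. It was followed by 160.0 kb over Cdh22, a cadherin gene, and 138.0 kb over the Hoxd cluster with Evx2. Next came 135.4 kb over Tox2, an HMG-box factor gene of lymphoid cells, 127.2 kb over the homeobox gene Uncx, 127.0 kb at Rhcg, a renal ammonia transporter gene, and 125.4 kb over Hoxb13. The Hoxa cluster followed with 123.2 kb, then Ccdc33, Stra6 and Islr with 119.0 kb and the LIM homeobox gene Lhx5 with 107.4 kb. Just inside the width limit were 30.2 kb domains at Pou3f1, Vstm2l and Ckmt1, and 9 domains measured exactly 30 kb. Just outside, at 29.8 kb, were regions at Nkain1 and Lrrn2. The limit passed through a continuous range of widths.

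The rule left out 16 autosomal regions of 30 kb or more for an IgG island, among them the widest of all, 413.0 kb over 9 Hoxc genes, in which the IgG island measured 1.4 kb and held 36 reads. The 102.8 kb region of Lhx1 was left out for an IgG island of 22 reads. One excluded region on chromosome 9 lay under IgG islands over its whole 38.4 kb, with 29329 reads. A further 29 wide regions lay on X or Y, and 1 autosomal region of 30 kb or more lacked an island in at least 1 library. Neighbouring domains were mostly far apart, by a median of 1024.9 kb, but 28 of 440 neighbouring pairs lay under 5 kb from each other. The Hoxb genes, for example, were split over 3 consecutive domains.

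A domain was rarely 1 unbroken island. The median domain held 2, 3, 3 and 2 islands in WT replicate 1, WT replicate 2, KO replicate 1 and KO replicate 2, and 91, 54, 73 and 86 of the 459 domains were unbroken in these libraries. A single island of 30 kb or more occurred in every library in 40 domains, 32 of which held a listed developmental gene. In 249 domains, 54.2%, no library had such an island, and the width came from shorter islands bridged across libraries. Breaks between islands numbered 759 and 1156 in WT and 969 and 782 in KO. The WT and KO libraries overlapped in this count (exact two-sided permutation p = 1.0, where 2 libraries against 2 cannot go below 0.333). Most breaks were short, with medians of 1.0, 1.2, 1.8 and 1.2 kb. Breaks over 5 kb made up 5.8% and 9.43% of those in WT and 21.9% and 13.4% of those in KO, a split that was not tested. In the narrower H3K27me3 regions the median break was 1.0 and 1.2 kb in WT and 1.2 and 1.0 kb in KO.

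Islands covered less of the domains in KO replicate 1 than in the other 3 libraries. They covered 88.2% and 78.2% of the summed domain length in WT and 66.5% and 80.9% in KO, 83.2% ± 7.07 against 73.7% ± 10.2 (mean ± SD, n = 2 each). The genotypes overlapped (exact two-sided permutation p = 0.667). Without KO replicate 1 the difference went from -9.55 to -2.37 percentage points, and without WT replicate 1 it was -4.55. Over the whole genome the 4 libraries covered 117.6, 95.1, 76.8 and 95.5 Mb with islands, so KO replicate 1 was also lowest and WT replicate 1 highest outside the domains, and the part of this in the domain values was not tested. Length missing at the outer ends of domains did not overlap between the genotypes, at 5.35% and 9.65% in WT and 17.5% and 10.003% in KO (exact two-sided permutation p = 0.333). That p is the smallest possible, and WT replicate 2 and KO replicate 2 differed by little. Domain ends were set by the outermost island of any library, so this measure is not independent of the selection. In the narrower H3K27me3 regions the genotypes overlapped, at 18.6% and 28.2% in WT and 35.0% and 25.4% in KO (exact two-sided permutation p = 0.667). Length missing in breaks was 6.42% and 12.1% in WT and 16.0% and 9.14% in KO.

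Read as 200 bp windows, 52.4% of the domain length lay under an island in all 4 libraries. Windows covered in both WT and neither KO library summed to 1.02 Mb, 4.91% of the length. The reverse, both KO and neither WT, came to 0.264 Mb or 1.27%. Single domains went the same way. The covered share was lower in both KO than in both WT libraries in 144 domains, 31.4%, where 20.5% of all tested regions did so. It was higher in both KO libraries in 26, 5.66%, against 11.9% of all tested regions. Covered share is taken over the merged width that selected the domains, and WT replicate 1 added most to that width. Without it 283 domains met the rule, against 381, 417 and 360 without WT replicate 2, KO replicate 1 and KO replicate 2. Windows covered only in WT replicate 1 made up 5.91% of the length, against 1.72%, 0.959% and 2.73% for those libraries. The part of this selection in the shares was not tested.

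**Figure D1:**
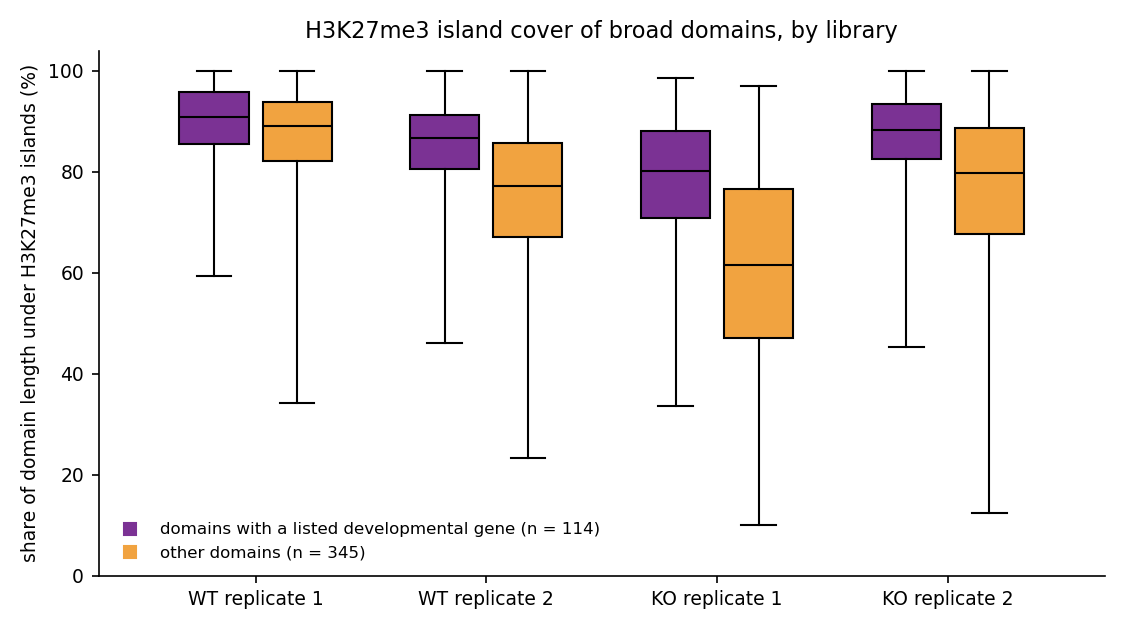
Share of domain length under H3K27me3 islands (%, vertical axis) in each of the 4 libraries; boxes give the quartiles with the median line and whiskers the lowest and highest of the 114 domains with a listed developmental gene (purple) and the 345 others (orange). Medians are 90.9%, 86.6%, 80.2% and 88.3% in purple and 89.1%, 77.3%, 61.5% and 79.7% in orange, lowest in KO replicate 1 for both.

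The domains lay over 570 of 20665 autosomal protein-coding genes, 2.76%, of which 296 lay wholly inside. 64 domains met no protein-coding gene. Broad domains held fewer starts per length than narrower regions (16.2 against 37.9 per Mb), but more of them held at least 1 start (56.2% against 40.8%). Gene starts lay under islands more often than domain length as a whole. Of 422 starts inside domains, 97.2% and 95.7% lay under an island in WT and 91.9% and 95.3% in KO, above the covered share of length in every library.

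Patterning genes were the most frequent residents among the families looked up. Of 39 Hox genes, which set position along the body axis, 26 lay in 5 domains, and 12 more, including all 9 in the excluded Hoxc region, lay in other regions found in 4 libraries. Of 114 other homeobox genes 73 lay in domains, among them Dlx, Nkx, Pax and Pou genes. The Wnt ligands followed with 10 of 19, then T-box factors with 6 of 15, Zic and Gli factors with 4 of 10, Fox factors with 13 of 41, Sox factors with 4 of 18 and bHLH factors with 10 of 52. Of the GATA factors, Gata3 and Gata4 lay in domains, and Gata2, Gata5 and Gata6 in other regions found in 4 libraries. The BMP and TGF-beta ligands and the FGF ligands, which signal to the same embryonic tissues, differed in this respect: 0 of 28 and 0 of 20 lay in broad domains, while 19 and 16 lay in other regions with an island in all 4 libraries. In all, 149 of 364 listed developmental genes, 40.9%, were in 114 domains, or 24.8% of the domains. None of the 1104 olfactory receptor genes and none of the 57 clustered protocadherin genes lay in a broad domain, though 34 protocadherin genes met other regions found in 4 libraries.

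Some genes of direct interest in blood lay in domains. Of the 10 progenitor markers 0 did, where the share of all genes was 2.76%, so a list of this size cannot show a difference. Flt3, Gata2 and Meis1 met other regions found in 4 libraries. Of the 5 B cell and the 5 T cell markers, 1 each lay in a domain. Pax5, the B lineage factor, lay in a 64.4 kb domain with 763 and 945 CPM (edgeR's cpm, reads scaled to the library's reads in tested regions) in WT and 724 and 701 in KO. Bcl11b, a T lineage factor, lay in a 48.6 kb domain with 743 and 694 CPM in WT and 609 and 736 in KO. Gata3, which is needed for T cells, lay in a 31.8 kb domain that was 1 unbroken island in every library, covering 83.0% and 83.0% in WT and 96.2% and 99.4% in KO. Its reads were 533 and 683 CPM in WT and 748 and 693 in KO, with both KO values above both WT values but the nearest pair close. The cell cycle inhibitors Cdkn2a and Cdkn2b shared a 52.4 kb domain with 661 and 1016 CPM in WT and 831 and 881 in KO, inside the WT range. The stromal genes Cxcl12 and Col1a1 and the imprinted gene Grb10 were in domains too. Of 30 Polycomb complex genes 1 was, Cbx2, a PRC1 subunit that binds H3K27me3. This share of 3.33% lay near the 2.76% of all genes.

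Domains with a listed developmental gene had fewer breaks and denser reads than the others in each of the 4 libraries. They had 26.2 and 36.1 breaks per Mb in WT and 33.4 and 25.4 in KO. The other 345 domains had 40.5 and 63.2 in WT and 51.8 and 42.4 in KO. The difference was -19.2 ± 5.51 breaks per Mb (mean ± SD over 4 libraries, exact two-sided sign-flip p = 0.125, the smallest 4 libraries allow). Reads per kb of island were 36.2 to 43.3 in developmental domains and 26.9 to 32.5 in the others. The widths were also unequal, with medians of 42.9 and 37.8 kb, and 23 of the 50 widest domains held such a gene. Among domains under 50 kb, the 74 developmental ones had 19.3 and 27.5 breaks per Mb in WT and 25.4 and 21.1 in KO. The 273 others under 50 kb had 39.3 and 63.0 in WT and 47.7 and 40.5 in KO.

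Reads in the domains were then compared between genotypes by edgeR's quasi-likelihood test over all 6771 regions with an island in all 4 libraries. Of the 459 domains 0 were lower and 0 higher in KO at an adjusted p of 0.05, where 0.0148% of all tested regions, a single one, were lower and 0.0% higher. At an unadjusted p under 0.05 there were 33 lower and 9 higher domains, against 257 and 260 of all regions, and the smallest adjusted p of a domain was 0.295. DESeq2 called 3 domains lower, 0.654% against 0.278% of the 6114 regions to which it gave an adjusted p, and 1 higher, 0.218% against 0.262%. With edgeR, scaling to total island reads gave 0 lower and 1 higher domain, against 0.0148% and 0.133% of all regions. Without KO replicate 2 there were 1 and 0, against 0.0886% and 0.0148%. The median log2 fold change, KO over WT, was -0.06 in the domains with a median standard error (SE) of 0.163, and 0.00 over all tested regions, and 294 domains (64.1%) lay below 0 against 50.2% of all. Scaling to total island reads moved the median of all regions up by 0.12 and that of the domains to 0.06, so the sign of the domain median depends on the scaling. It lay below that of all regions under both scalings, but not per covered length (0.1098 against 0.1091) or with islands in at least 2 libraries as the filter (-0.08 against -0.10). CPM was lower in both KO than in both WT libraries in 116 domains, 25.3%, against 18.8% of all regions. It was higher in both in 49, 10.7%, against 19.6%. The domains were chosen on merged width, to which WT replicate 1 added most, with 283 domains left without it. The part of that selection in these shares was not tested. Changes beyond 2-fold were seen in 4 domains, 0.871%, and in 4.49% of all tested regions, whose median SE was larger (0.371).

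Domains without a listed developmental gene carried most of the lower values. The split rests on the 12 listed families, so the other domains can hold developmental genes that were not listed. Their median log2 fold change was -0.13, with 243 of 345 below 0. Domains with such a gene had a median of 0.01, with 51 of 114 below 0 and a range from -0.31 to 0.49. All domains share the same 4 libraries and are not replicates. A single island of 30 kb or more in every library was seen in 40 domains, of which 32 held such a gene. Reads were counted only in islands, and the domains were chosen on merged width. The part of that choice in these values was not tested. The 5 Hox domains lay between 0.09 and 0.35, with SEs of 0.130 to 0.160, and none passed the test. For the Hoxd domain the reads were 3035 and 3935 CPM in WT and 3649 and 3796 in KO, inside the WT range. Developmental domains took 35.2% and 39.3% of all domain reads in WT and 39.9% and 38.9% in KO. WT replicate 2 lay among the KO values (exact two-sided permutation p = 0.667), so a shift of reads between both kinds of domain was not seen beyond the spread of libraries, and without WT replicate 1 the difference went from 2.2 to 0.148 percentage points.

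**Figure D2:**
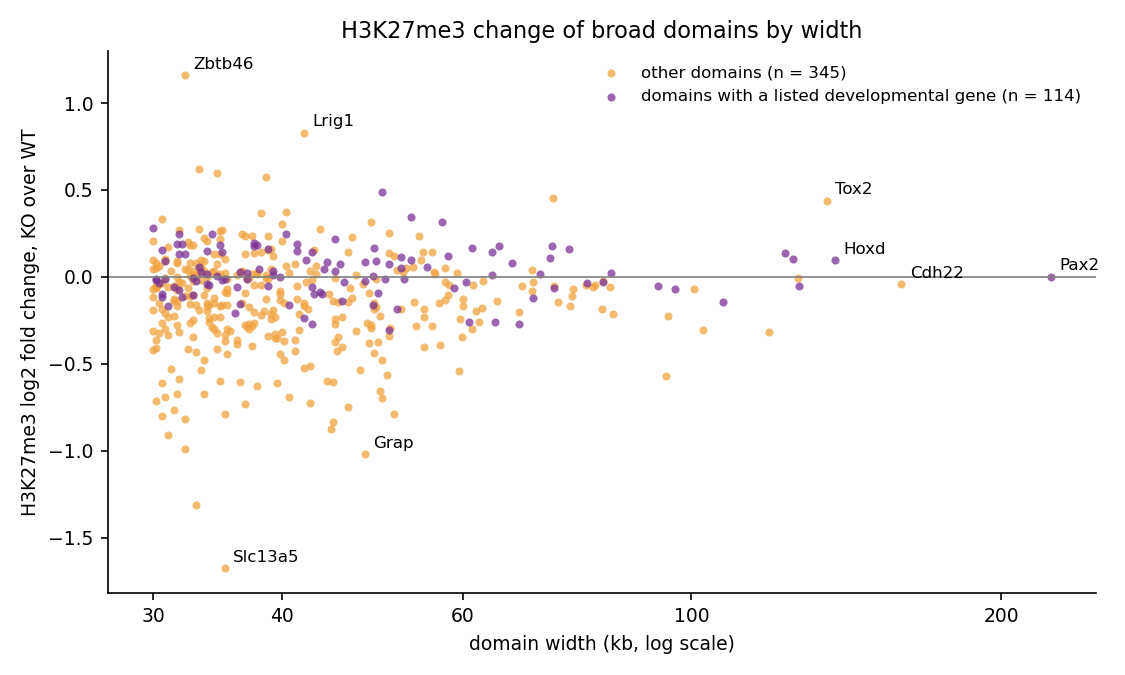
H3K27me3 log2 fold change (KO over WT, vertical axis) against domain width (kb, log scale) for the 459 broad domains; purple points hold a listed developmental gene. Purple points stay between -0.31 and 0.49, and the lowest value, -1.68 at Slc13a5, and the highest, 1.16 at Zbtb46, are orange points under 40 kb.

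The domain with the lowest fold change covered Slc13a5, a citrate transporter gene (chromosome 11, 72224001 to 72259200, mm10). It had 310 and 159 CPM in WT and 90.3 and 56.7 in KO (log2 fold change -1.68, SE 0.356, edgeR adjusted p = 0.352). Islands covered 89.8% and 50.6% of it in WT and 17.1% and 12.5% in KO, where a single island was left in each library. Both KO islands lay in the same place, 4.6 to 10.6 kb and 5.8 to 10.2 kb to one side of the domain centre. WT replicate 1 alone set both outer ends, so the Slc13a5 domain met the width limit through a WT library. Its fall is therefore not independent of the selection. A domain on chromosome 2 without a protein-coding gene (92788201 to 92821200) came next, with 245 and 146 CPM in WT and 81.0 and 76.2 in KO (-1.31). The domain of Grap, an adaptor gene, the sugar transporter gene Slc5a10 and Fam83g, whose promoter is printed above, had 500 and 341 CPM in WT and 164 and 251 in KO (-1.02, SE 0.246, edgeR adjusted p = 0.359). Genotypes did not overlap in any of these 3, and all 3 passed with DESeq2 (adjusted p = 0.00515, 0.0435 and 0.0435). These 3 were picked for their low fold change. CPM was lower in both KO than in both WT libraries in 18.8% of all regions. The keratin genes Krt84, Krt82, Krt90 and Krt75 shared a domain with 415 and 308 CPM in WT and 157 and 237 in KO (-0.88). Nearby, the keratin domain of Krt72 and Krt73 had 431 and 367 CPM in WT and 97.0 and 364 in KO (-0.79), and here KO replicate 1 alone was low. It passed only without KO replicate 2 (-2.04, edgeR adjusted p = 0.0186). Mmp24, a membrane metalloproteinase gene, went from 456 ± 16.7 to 300.2 ± 27.1 CPM (-0.60, SE 0.160, edgeR adjusted p = 0.384).

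At the other end stood Zbtb46, a zinc finger factor of classical dendritic cells and endothelium (chromosome 2, 181442001 to 181474200). The domain lay inside the gene body, 17.6 kb from the listed start, and was 1 unbroken island in every library. It had 152 and 186 CPM in WT and 331 and 423 in KO (1.16, SE 0.203, edgeR adjusted p = 0.295), and passed with DESeq2 (adjusted p = 0.00374) and with scaling to total island reads (edgeR adjusted p = 0.0138). The island measured 34.2% and 31.1% of the domain in WT and 62.7% and 100% in KO. Only that of KO replicate 2 reached 30 kb, so the Zbtb46 domain met the width limit through a KO library. Its fold change and the tests of it are therefore not independent of the selection. Lrig1, a gene of an inhibitor of EGF receptor signalling, had 180 and 224 CPM in WT and 403 and 316 in KO (0.83, SE 0.201, adjusted p = 0.359 with edgeR), over its start as printed above. Il17rd, which encodes an inhibitor of FGF signalling, had 209 and 241 CPM in WT and 347 and 345 in KO (0.62). The domain of Cbx2 and Enpp7 had 213 and 202 CPM in WT and 318 and 310 in KO (0.60). Tinagl1 with the orexin receptor gene Hcrtr1 (0.57), Six5 with its neighbours Dmwd and Dmpk (0.49), the cytokine receptor gene Lifr with Egflam (0.46) and Tox2 (0.44) followed. In Tox2 the libraries had 1126 and 914 CPM in WT and 1479 and 1286 in KO. In these domains too the genotypes did not overlap and none passed the test over all regions with edgeR. They were picked for their high fold change. CPM was higher in both KO than in both WT libraries in 19.6% of all regions.

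**Figure D3:**
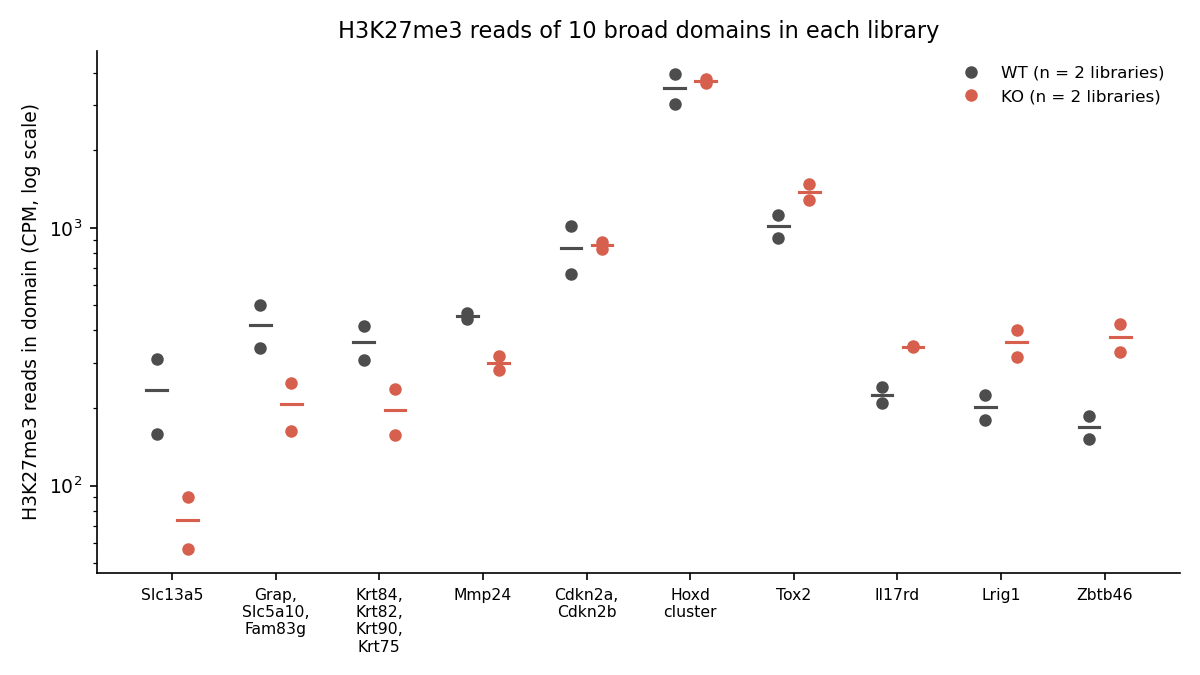
H3K27me3 reads (CPM, log scale) of 10 broad domains in each library; points are the 2 WT (grey) and 2 KO (red) libraries and short lines their means. WT points lie above KO points at Slc13a5, Grap, the Krt84 domain and Mmp24, below them at Tox2, Il17rd, Lrig1 and Zbtb46, and around them at Cdkn2a and the Hoxd cluster.

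Because only reads inside islands are counted, fewer reads and shorter islands are not separate measurements. Across the 459 domains the fold change in reads followed the change in covered share (Spearman's rank correlation 0.858, across domains that share the same 4 libraries). Per covered length, Slc13a5 went to 0.58 and Zbtb46 to -0.13, neither passing the test with edgeR (adjusted p = 0.997 for both). The map of islands shows both forms next to the Pax2 and Hoxd domains.

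**Figure D4:**
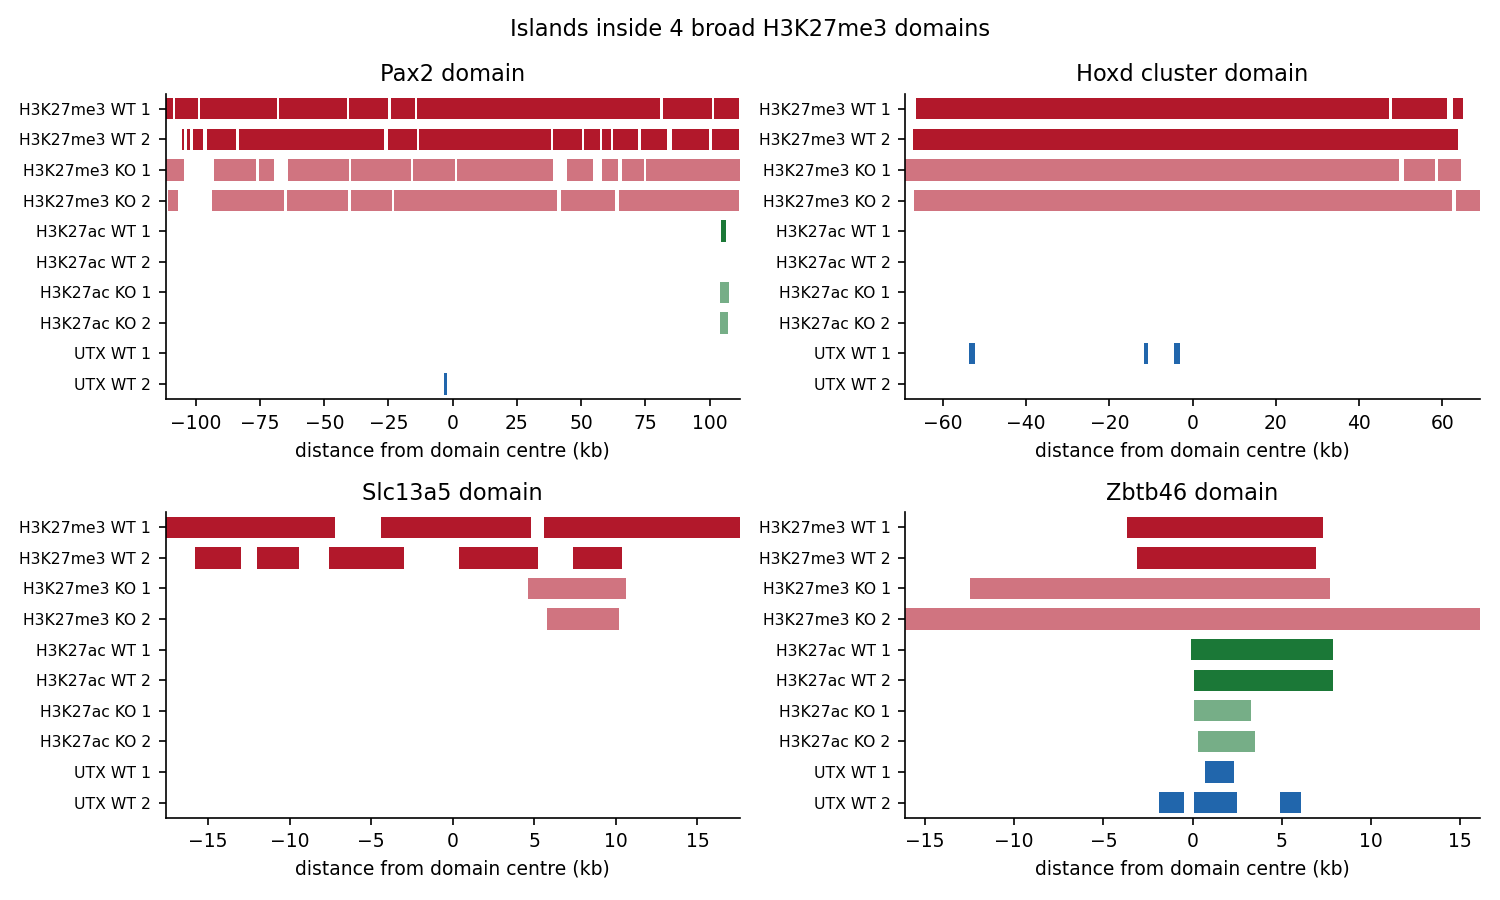
Islands of the 4 H3K27me3 libraries (red), 4 H3K27ac libraries (green) and 2 UTX libraries (blue) in 4 domains, by distance from the domain centre (kb); paler bars are KO. Pax2 is broken into 7 to 14 islands and the Hoxd cluster into 1 to 3, Slc13a5 keeps 1 short island in each KO library, and the Zbtb46 island is longer in KO where the H3K27ac islands are shorter.

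H3K27ac was scarce in the domains. No H3K27ac library had an island in 356 domains (77.6%), all 4 had one in 33 domains, and the islands covered 1.08% to 1.2% of the domain length, against 3.64% to 4.07% of the narrower regions. Of the 50 tested H3K27ac regions that met a domain, 9 were lower in KO, 18.0% against 14.0% of all 18820 tested, and 7 higher, 14.0% against 12.0%. Only 22 of the 50 lay wholly inside a domain. Over whole islands 9 and 7 were called, but per covered length the calls were 3 lower, 6.0% against 1.38% of all tested, and 0 higher, against 0.42%, the former at Zbtb46, Adamtsl5 and Arhgef12. With an island in at least 2 libraries as the filter, 113 of 28443 tested regions met domains, and 31 of them were lower, 27.4% against 18.4% of all, and 25 higher, 22.1% against 11.6%. Under that filter the calls at Tinagl1, Hoxa, Hoxb, Aspg and Kcp, described next, were lost (edgeR adjusted p = 0.0605 to 0.091).

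The largest fall was inside the Zbtb46 domain, in a region of 8.0 kb. It had 99.9 and 91.5 CPM of H3K27ac in WT and 11.1 and 13.0 in KO (-2.99, SE 0.141, edgeR adjusted p = 0.000171). Next came Adamtsl5, a gene of a secreted matrix protein, from 47.4 ± 1.53 to 10.4 ± 0.68 CPM (-2.18, edgeR adjusted p = 0.00048). At the promoter of Arhgef12 H3K27ac fell from 82.0 ± 6.7 to 18.8 ± 3.9 CPM (-2.13, adjusted p = 0.000487 with edgeR). Dusp8, a phosphatase gene of the MAP kinases (-1.93), the start of Tinagl1 (-1.92) and the start of Dmwd in the Six5 domain (-1.69) fell as well. In the Hoxa domain, a 23.8 kb region over Hoxa3, Hoxa7, Hoxa9 and Hoxa10 had 267 and 238 CPM in WT and 181 and 139 in KO (-0.66, edgeR adjusted p = 0.0117). A 19 kb region over Hoxb3, Hoxb4 and Hoxb5 had 151 and 119 CPM in WT and 91.2 and 80.9 in KO (-0.65, edgeR adjusted p = 0.0128). The Hoxa region had the most H3K27ac reads of the 50, and genes of both clusters are known to be active in blood stem cells. The ninth lay at Atp5g2, an ATP synthase subunit gene, with 18.8% of its length in a domain (-0.61). Calls were lost without WT replicate 1 at Tinagl1 (adjusted p = 0.0697), Hoxa (0.097) and Hoxb (0.0648), and without WT replicate 2 at Tinagl1 (0.0628), Hoxa (0.0586) and Atp5g2 (0.0512).

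Of the 7 higher regions, the one at Irs1, the insulin receptor substrate gene, had 6.59 and 4.93 CPM in WT and 19.8 and 30.4 in KO (2.13, SE 0.306, edgeR adjusted p = 0.00325). At the shared promoter of Chpf, a chondroitin synthesis gene, and Tmem198 it rose from 11.5 ± 3.71 to 32.8 ± 0.59 CPM (1.53). A region on chromosome 11 (119055401 to 119059000) with no protein-coding gene, one beside Aspg and Kif26a, and one in Kcp, a gene of a BMP-binding protein, each rose by 1.33 on the log2 scale. The last 2 held few reads. The region beside Aspg had 3.65 and 4.25 CPM in WT and 10.04 and 10.02 in KO. That in Kcp had 4.12 and 3.42 in WT and 9.4 and 9.47 in KO. Neither was tested when at least 50 reads in every library were required. Mthfsd, whose region reached into the Foxc2 domain (0.51), and Matn4, a matrix gene (0.49), completed the 7. Kcp lost its call without WT replicate 2 (edgeR adjusted p = 0.0645). Mthfsd and Matn4 lost theirs without each library in turn (0.0864 to 0.221 and 0.087 to 0.17) and with DESeq2.

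The marks went in opposite directions in 15 of the 16 domains with a called H3K27ac region. All 9 domains with lower H3K27ac had an H3K27me3 fold change above 0, and 6 of the 7 with higher H3K27ac had one below 0, although no H3K27me3 change passed the test. Most of these H3K27me3 values were small, and 11 of the 16 lay within 0.2 of 0. Values below 0 were also common in the domains at large, with 294 of 459 (64.1%). The signs at H3K27ac regions that were not called were not counted. Outside the broad domains the signs also differed, in 217 of 296 called H3K27ac regions that met another tested H3K27me3 region, 73.3% against 93.8% in the domains; the difference between the shares was not tested. Leaving out 1 library gave 12 to 15 opposite pairs. Scaling to total island reads gave 11, and 15 when signs were taken against the median of all regions. Reads per covered length gave 9, and 7 against the median, so the count depends on this choice.

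**Figure D5:**
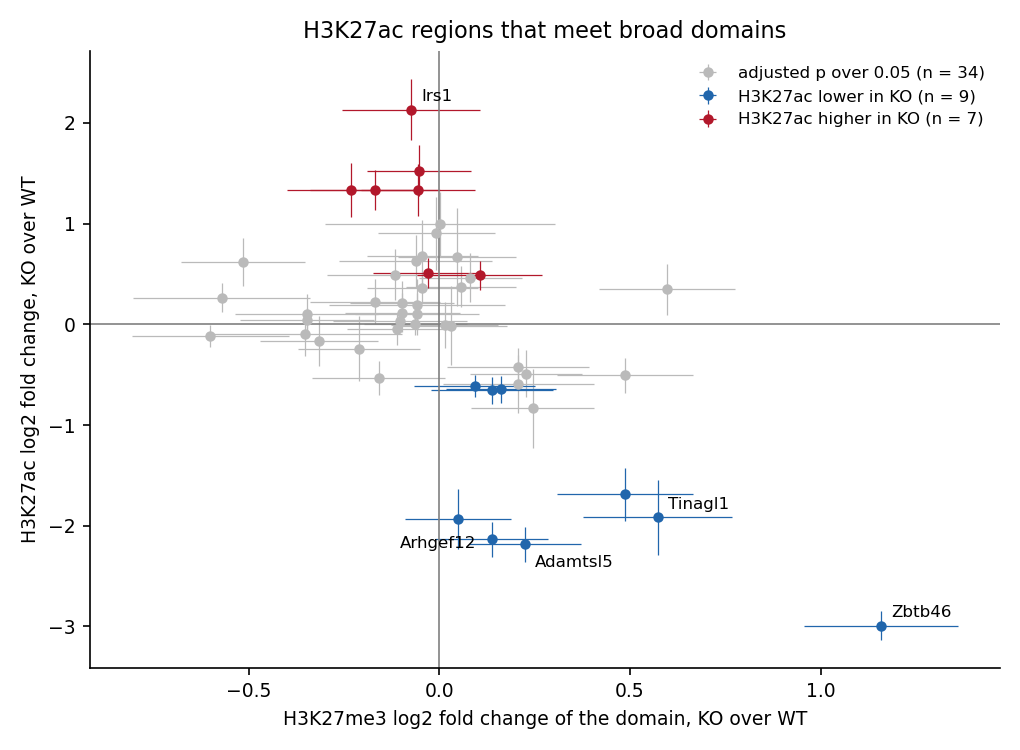
H3K27ac log2 fold change of the 50 tested regions that meet a broad domain (vertical axis) against the H3K27me3 log2 fold change of that domain (horizontal axis), both KO over WT; bars are standard errors. Blue points (H3K27ac lower) lie right of 0 in 9 of 9 cases and red points (higher) left of 0 in 6 of 7. Grey points (not called) lie on either side of 0 on both axes, from -0.834 to 0.997 on the vertical axis.

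UTX islands met 111 and 120 of the 459 domains, and 62 domains, 13.5%, were met in both WT libraries, against 8.75% of the 5637 narrower regions. By length the order was reversed, with 0.741% and 1.21% of the domain length under UTX islands against 1.75% and 2.46% of the narrower regions. The Hoxa domain held the most UTX reads, 163 and 927 in the libraries. Adamtsl5 (37 and 425 reads), Arhgef12 (123 and 344), Zbtb46 (45 and 278), Skida1 (146 and 275) and the Chpf domain (41 and 265) followed in the order of UTX replicate 2. In the Zbtb46 domain the single UTX island of replicate 1 lay inside the H3K27ac region, as did 2 of the 3 islands of replicate 2. Of the H3K27ac regions in domains, 6 of the 9 lower in KO met islands of both UTX libraries, 2 of the 7 higher and 21 of the 34 not called. Among all tested regions the shares were 52.4%, 30.3% and 37.1%. The IgG library had no island in any domain, which the rule set.

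Of 919 autosomal miRNA hairpins listed by RefSeq, 29 (3.16%) lay in 23 broad domains. The Hox domains hold miRNAs that share a seed across clusters, so their mature sequences are shown, 5′ to 3′ from RefSeq GRCm38.p6, with the seed (bases 2 to 8) in capitals.
miR-10a-5p, Hoxb domain, chr11:96317186-96317208: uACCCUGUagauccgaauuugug
miR-10b-5p, Hoxd domain, chr2:74726074-74726096: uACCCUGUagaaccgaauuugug
miR-196a-5p, Hoxb domain, chr11:96265187-96265208: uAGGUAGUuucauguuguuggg
miR-196b-5p, Hoxa domain, chr6:52230129-52230150: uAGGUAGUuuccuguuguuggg
miR-9-5p, Rhbg domain, chr3:88215613-88215635: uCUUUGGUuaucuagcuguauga
The pair of miR-10 miRNAs shares the seed ACCCUGU and the pair of miR-196 miRNAs AGGUAGU. The loci of miR-196b and miR-10a lay inside the H3K27ac regions of Hoxa and Hoxb that fell in KO. All 3 loci of miR-9, a neural miRNA, lay in broad domains, at Rhbg on chromosome 3, at Rhcg on chromosome 7 and in a domain without a protein-coding gene on chromosome 13. The wide Rhcg domain had 2396 and 2404 CPM of H3K27me3 in WT and 2485 and 2292 in KO (log2 fold change -0.01, SE 0.129), with the KO values on either side of WT. miRNA levels were not measured.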

How the data were processed

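ChIP-seq libraries of lineage-depleted bone marrow progenitors were used as deposited: 4 of H3K27me3, 4 of H3K27ac, 2 of UTX and 1 IgG. Per the submitters' processing notes, islands were called with SICER on mouse build mm10; version, aligner, window, gap and control are not given in the sources used here. The deposited files give each island with its count of reads, whole numbers, called by the authors per library. Reads outside islands, and so total depth, were not used here.

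Islands overlapping by at least 1 bp were merged per mark on chromosomes 1 to 19, X and Y. Covered share is the part of a merged region under islands of a library. Regions with an island in all 4 libraries of a mark (6771 and 18820) were fitted with edgeR 4.0.16 in R 4.3.3 (TMM, glmQLFit, glmQLFTest, two-sided, Benjamini-Hochberg adjusted p of at most 0.05). CPM is edgeR's cpm, with reads in tested regions as library size, and the SE of a log2 fold change comes from the F statistic. The script was tested on simulated counts. In the H3K27me3 simulation of 6771 regions it called 33 of 100 regions changed 2-fold, 91 of 100 changed 4-fold and 10 of 6571 unchanged. In the H3K27ac simulation of 18820 regions it called 70 of 100, 99 of 100 and 23 of 18620. Changed regions were drawn at random from all tested regions. For H3K27me3 the median SE of all tested regions was 0.371, against 0.163 in the domains, so these counts do not describe the domains. Values with 1 number per library were compared by exact permutation tests.

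Genes, promoters and miRNAs come from NCBI RefSeq tables of GRCm38.p6, the assembly of mm10, which hold 20665 autosomal protein-coding genes, 20085 promoters and 919 hairpins. A gene is in a domain when its body overlaps it. Families were listed by symbol patterns, and 12 of them, from Hox genes to hedgehog ligands, make up the developmental genes. Named domains were the 10 widest, those with the largest changes in reads or covered share, those beside the width limit, those with Hox genes, the most UTX reads or a called H3K27ac region, and listed family members. The members and lists were chosen with earlier results of these data known. Alternatives were DESeq2 1.42.0, total island reads as scaling, other region filters, each library left out, a replicate block, reads per covered length, shorter island lists and other widths.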

Additional observations from a re-analysis of the deposited data

How the results depend on the processing

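The number of broad domains was 1094 with a minimum width of 20 kb, 112 with 50 kb and 650 with islands up to 1 kb apart merged. It was 283 without WT replicate 1 and 360 to 417 when another library was left out. Domains called lower in H3K27me3, 0 with edgeR, numbered 3 with DESeq2 (0.278% of all regions with an adjusted p) and 0 to 1 without 1 library, and domains called higher numbered 1 with DESeq2 (0.262% of all), 1 with scaling to total island reads and 0 to 0 without 1 library. WT and KO libraries of the same replicate number showed little sign of deviating together (correlation of deviations -0.0521 for H3K27me3 and 0.0458 for H3K27ac). These values cannot settle whether the libraries were paired. With a replicate block 0 domains were lower and 0 higher, and H3K27ac gave 11 lower and 8 higher. The covered share differed between KO and WT by -16.7 to -2.37 percentage points, length missing at ends by 2.5 to 10.03, and length missing in breaks by -0.126 to 6.7 without 1 library; breaks per Mb differed by -3.95, by 2.26 with equal list lengths and by -13.5 to 5.61 without 1 library, so their direction is not settled. Without 1 library the share of domain reads in developmental domains differed by 0.148 to 4.25 percentage points. H3K27ac regions called lower and higher, 9 and 7 of 50, numbered 31 and 25 of 113 when an island in at least 2 libraries was enough (18.4% and 11.6% of all tested), 3 and 0 of 50 per covered length (1.38% and 0.42% of all), and 6 to 10 and 4 to 7 without 1 library. Opposite pairs of marks numbered 9 per covered length, 7 against the median there, and 12 to 15 without 1 library.

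Some signs turned. The median H3K27me3 log2 fold change of the domains was 0.056 with scaling to total island reads and 0.11 per covered length, and that of H3K27ac in domains -0.29 per covered length. Per covered length the H3K27me3 values were -0.13 for Zbtb46, 0.58 for Slc13a5, 0.28 for Mmp24, -0.0013 for Hcrtr1 with Tinagl1, 0.013 for Pax5, 0.043 for Krt72 with Krt73 and 0.061 for the chromosome 2 domain without a gene, and the H3K27ac values -0.81 at Mthfsd and -0.0064 at Matn4. Pax2 stayed near 0 throughout (-0.00025 with DESeq2, -0.016 where 2 libraries with an island were enough, and -0.045 to 0.046 when 1 library was left out). Cdkn2a with Cdkn2b went from -0.25 to 0.37 when 1 library was left out. Of the 16 H3K27ac calls, 9 were kept without each of the 4 libraries, and 3 were kept per covered length. The cause of these shifts was not tested.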
